A study of Homo sapiens with 4 samples.

Results

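The genes described here encode the DNA replication machinery, from the proteins that license origins to the cyclins that open S phase. The 50 members were named by their function in replication, and fall into 11 groups by role. All 50 were among the 26475 gene symbols listed, and all 50 were among the 15204 genes that reached 10 counts in some library, called the tested genes below.

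RNA was sequenced from mammospheres, floating spheres that breast cells form in non-adherent culture, grown from MDA-MB-468, a basal-like triple-negative breast cancer line. The study used them to ask which genes depend on TCOF1, the gene of the nucleolar protein treacle, which assists transcription of ribosomal RNA genes. The cells were sorted pools, not single clones, that carried Cas9 marked with mCherry and a guide construct marked with eGFP, so all 4 groups shared these vectors. Each group gave 1 library after 7 days in mammosphere medium, with 6 to 7 plates pooled per group. CTL was labelled wild type and untreated, and CTL+dox was labelled wild type with doxycycline, the drug that switches on the guide. gRNA2 cells carried a guide against TCOF1 without doxycycline and were also labelled wild type. gRNA2+dox cells carried the same guide with doxycycline and were labelled as a TCOF1 knockout.

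With 1 library per condition there was no replicate check, and every difference below compares 2 libraries, not 2 conditions. The interval beside a log2 ratio is the exact 95% Clopper-Pearson interval of the read counts and covers counting error only. The libraries held 19960644 to 26322847 counts on genes. TCOF1 itself had 1019, 754, 1318 and 437 reads in CTL, CTL+dox, gRNA2 and gRNA2+dox, which put gRNA2+dox at -1.34 on the log2 scale against gRNA2 and CTL+dox at -0.58 against CTL. Basal-like markers were abundant in every library, with KRT17 at 5993 to 6666 and EPCAM at 435 to 475 CPM (counts scaled to a common library size). The summed level of the 7 basal-like markers was 14799, 15418, 14914 and 16496 CPM in the order above. The 2 hormone receptor genes ESR1 and PGR summed to at most 0.832 CPM, the white blood cell markers to 10.8 to 13.0 CPM, nearly all of it CD14, the 5 fibroblast markers to 16.9 to 21.4 CPM, nearly all of it COL1A1, and the 3 endothelium markers to at most 1.54 CPM, with CDH5 at 0 in every library.

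Replication begins when the origin recognition complex, CDC6 and CDT1 load the MCM helicase onto DNA in G1. At the start of S phase, CDC45 and the GINS complex join the loaded MCM ring to form the active helicase, and polymerases, the sliding clamp and its loader then copy the opened strands. Many of these genes are transcribed in late G1 under E2F factors, which the cyclin E kinase helps to release from the retinoblastoma protein, so their transcripts are widely used as a sign of proliferating cells. RB1, the gene of the retinoblastoma protein, had only 63, 90, 77 and 65 reads in CTL, CTL+dox, gRNA2 and gRNA2+dox. RBL2 of the same family had 1145, 1256, 1511 and 1344. Whether that release takes place in these cells was not tested. In bulk RNA, fewer cells in a phase of the cycle and less RNA per cell cannot be told apart.

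The start sites of 7 members are shown first, since the report returns to them. They are the 4 members that were lowest in gRNA2+dox by the widest margin, then GINS1, DTL and MCM6. GINS1 and DTL were also lowest in gRNA2+dox and carry E2F letters beside the start site. MCM6 carries such letters most often. Each start site is shown as the 200 bases from 180 before to 20 from the RefSeq transcription start, on the gene's strand, in GRCh38.p14. Capitals mark the letters TTTCCCGC, TTTCGCGC, TTTGCCGC or TTTGGCGC on either strand, a common form of the E2F element. The windows are GINS3 at chr16:58392291-58392490 (plus strand), GINS2 at chr16:85688935-85689134 (minus), UHRF1 at chr19:4909321-4909520 (plus, the first of its 3 listed starts), ORC6 at chr16:46689479-46689678 (plus), GINS1 at chr20:25407493-25407692 (plus), DTL at chr1:212035568-212035767 (plus) and MCM6 at chr2:135876424-135876623 (minus).
GINS3: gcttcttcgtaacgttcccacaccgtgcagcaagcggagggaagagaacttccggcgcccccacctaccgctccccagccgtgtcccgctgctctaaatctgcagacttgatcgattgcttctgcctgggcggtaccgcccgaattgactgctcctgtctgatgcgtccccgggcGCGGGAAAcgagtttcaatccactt
GINS2: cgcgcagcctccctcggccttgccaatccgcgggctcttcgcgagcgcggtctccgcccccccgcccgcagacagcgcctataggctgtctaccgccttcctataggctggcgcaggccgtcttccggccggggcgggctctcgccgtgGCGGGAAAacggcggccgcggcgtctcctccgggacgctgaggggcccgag
UHRF1: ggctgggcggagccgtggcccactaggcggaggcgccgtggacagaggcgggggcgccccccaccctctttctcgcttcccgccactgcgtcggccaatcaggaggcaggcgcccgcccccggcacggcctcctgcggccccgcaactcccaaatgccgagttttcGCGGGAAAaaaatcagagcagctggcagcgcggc
ORC6: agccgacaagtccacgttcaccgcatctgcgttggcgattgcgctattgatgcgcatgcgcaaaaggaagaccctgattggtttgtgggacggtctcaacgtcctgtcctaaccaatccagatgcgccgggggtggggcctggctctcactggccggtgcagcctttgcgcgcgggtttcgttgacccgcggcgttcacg
GINS1: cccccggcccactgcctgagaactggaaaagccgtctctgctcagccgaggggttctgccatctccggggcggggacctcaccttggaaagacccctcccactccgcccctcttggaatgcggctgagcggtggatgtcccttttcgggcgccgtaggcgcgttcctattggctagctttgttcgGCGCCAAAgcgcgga
DTL: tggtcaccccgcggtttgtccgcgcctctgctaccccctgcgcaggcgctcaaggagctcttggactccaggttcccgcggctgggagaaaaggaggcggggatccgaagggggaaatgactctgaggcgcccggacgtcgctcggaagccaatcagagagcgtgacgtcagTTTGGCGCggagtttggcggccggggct
MCM6: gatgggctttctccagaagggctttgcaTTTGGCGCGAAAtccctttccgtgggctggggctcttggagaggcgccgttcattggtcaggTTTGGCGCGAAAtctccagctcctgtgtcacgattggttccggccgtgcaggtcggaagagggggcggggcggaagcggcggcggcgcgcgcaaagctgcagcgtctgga
The E2F letters begin 5 bases before the start in GINS3, 31 before in GINS2, 14 before in UHRF1 and 8 before in DTL, and at base 6 of the transcript in GINS1. In MCM6 they form 2 stretches in which a match on each strand overlaps, 4 matches in all. The ORC6 window holds none. CDC6, MCM2, MCM3, CLSPN and POLE2, not shown, carry E2F letters no further from the start than DTL does.

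Over the whole 300-base promoter entries, which reach from 250 bases before the start to 50 after, 43 members had a sequence. The members without one were MCM4, MCM5, GINS4, POLD3, RPA2, RPA3 and CCNE2. E2F letters were in 23 of the 43, or 53.5%, beside 6.30% of the 11133 tested genes with an entry and 3.99% of all 27305 genes with one. The CCAAT box, read as CCAAT or ATTGG, was in 28 of the 43, or 65.1%, beside 42.3% of the tested genes and 39.7% of all. The CHR element of genes expressed late in the cycle, read as TTTGAA or TTCGAA on either strand, was in 3 of the 43, or 6.98%, beside 15.5% of the tested genes and 19.5% of all. Members with E2F letters had a median log2 ratio of gRNA2+dox against gRNA2 of -0.16, and the 20 without had -0.13, while against CTL+dox the order was turned, at -0.19 and -0.23. Members with the CCAAT box had a median of -0.16 against gRNA2 and -0.32 against CTL+dox, and the 15 without had -0.10 and -0.07. These splits were not tested. A match of letters is a description of the window and does not show that a factor binds there.

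Most members were lower in gRNA2+dox than in every other library, by small amounts. Member reads summed to 56358, 62702, 68518 and 52733 in CTL, CTL+dox, gRNA2 and gRNA2+dox. These were 0.282%, 0.279%, 0.260% and 0.238% of the counts on genes, and the 95% interval of the gRNA2+dox share, 0.236 to 0.240%, did not reach that of any other library. On the scale of the sum, gRNA2+dox was 8.21% lower than gRNA2, 13.3% lower than CTL+dox and 12.5% lower than CTL. The sum of CTL+dox against CTL was at 0.01 on the log2 scale (-0.00 to 0.03), and that of gRNA2 against CTL at -0.07 (-0.09 to -0.05).

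Gene by gene, 41 members (82%) were lower in gRNA2+dox than in gRNA2, beside 54.2% of all tested genes. The numbers were 40 (80%) against CTL+dox, beside 49.8%, and 45 (90%) against CTL, beside 48.3%. The members' median log2 ratio was -0.13 against gRNA2, where the median of all tested genes was -0.02. It was -0.19 against CTL+dox, and -0.16 when set against CTL, where all tested genes had 0.00 and 0.01. These 3 comparisons share the gRNA2+dox library. In the comparisons without it, the members' median was 0.01 for CTL+dox against CTL and -0.04 for gRNA2 against CTL, with 22 (44%) and 30 (60%) members lower, beside 47.7% and 44.5% of all tested genes.

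**Figure D1:**
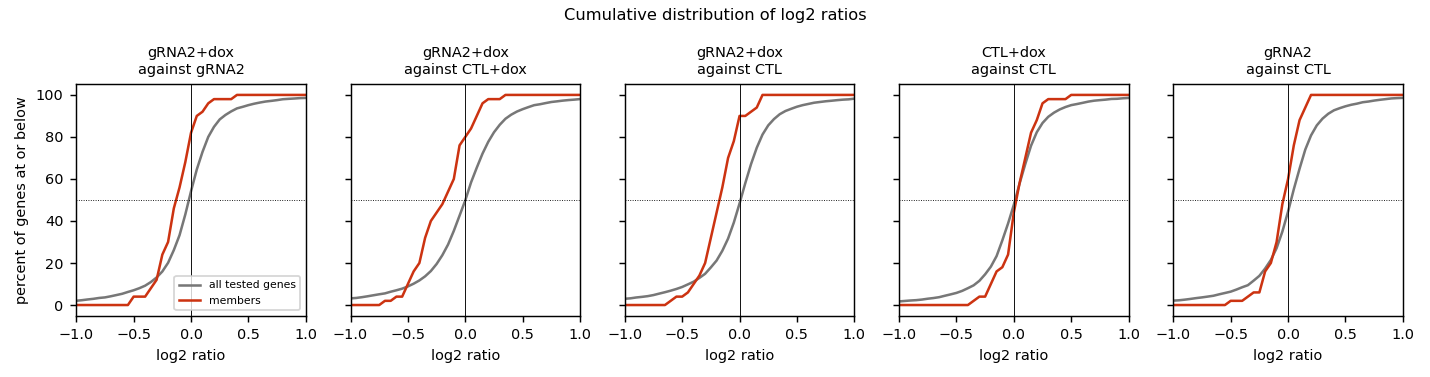
Cumulative distribution of log2 ratios for the 50 members (red) and all 15204 tested genes (grey), 1 panel per comparison. The horizontal axis is the log2 ratio and the vertical axis the percent of genes at or below it. In the 3 panels with gRNA2+dox the red curve lies left of the grey curve around the middle (medians -0.13, -0.19 and -0.16) and the curves cross in the lower tail, while for CTL+dox against CTL both medians are 0.01.

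For most members gRNA2+dox was the lowest library, and fewer members lay past a fold cutoff. That library was the lowest of the 4 for 34 members (68%), beside 26.3% of all tested genes. It was the highest for 3 (6%), beside 23.8%. CTL+dox was the highest library for 23 members (46%), CTL for 13 (26%) and gRNA2 for 11 (22%). The shares of all tested genes were 29.5%, 18.5% and 28.2%. With a cutoff of 0.32 on the log2 scale, the counts were smaller. Past this cutoff, 5 members (10%) were lower in gRNA2+dox than in gRNA2. The share was 12% of all tested genes and 5.25% of those with at least 100 counts in some library. Those 5 were ORC6, GINS2, GINS3, POLA1 and UHRF1. The single member higher past that fold was RPA3, beside 8.73% of all tested genes. Against CTL+dox, 18 members (36%) were lower past the cutoff, beside 14.9%, and 0 were higher, beside 13%. Against CTL, 10 members (20%) were lower, beside 14%, and 0 were higher, beside 10.4%. Against each of the 3 libraries at once, 4 members (8%) were lower past the cutoff, beside 5.25%: ORC6, GINS2, GINS3 and UHRF1.

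Weakly counted genes pass a fold cutoff more often, and every member reached 100 counts in some library. Among the 11215 genes with that many, 5.25% were lower past the cutoff against gRNA2, 8.12% against CTL+dox, and 6.44% when set against CTL. The study's own cutoffs, a log2 ratio below -1 with a conservative bound below -0.5, were passed by 0 members against any library, beside 0.27%, 0.98% and 0.796% of all tested genes against gRNA2, CTL+dox and CTL. In the comparisons without gRNA2+dox, 1 member (POLE2) was lower past the cutoff in CTL+dox than in CTL and 1 (RPA3) higher, beside 10.5% and 9.45%, and the lower count was 2 with DESeq2 size factors or total counts. In gRNA2 against CTL, 2 members (MCM10 and RFC3) were lower and 0 higher, beside 10.9% and 10%. Of the 11215 genes with at least 100 counts, 4.15% were lower and 3.52% higher in CTL+dox against CTL. In gRNA2 against CTL those shares were 3.88% and 4.49%.

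**Figure D2:**
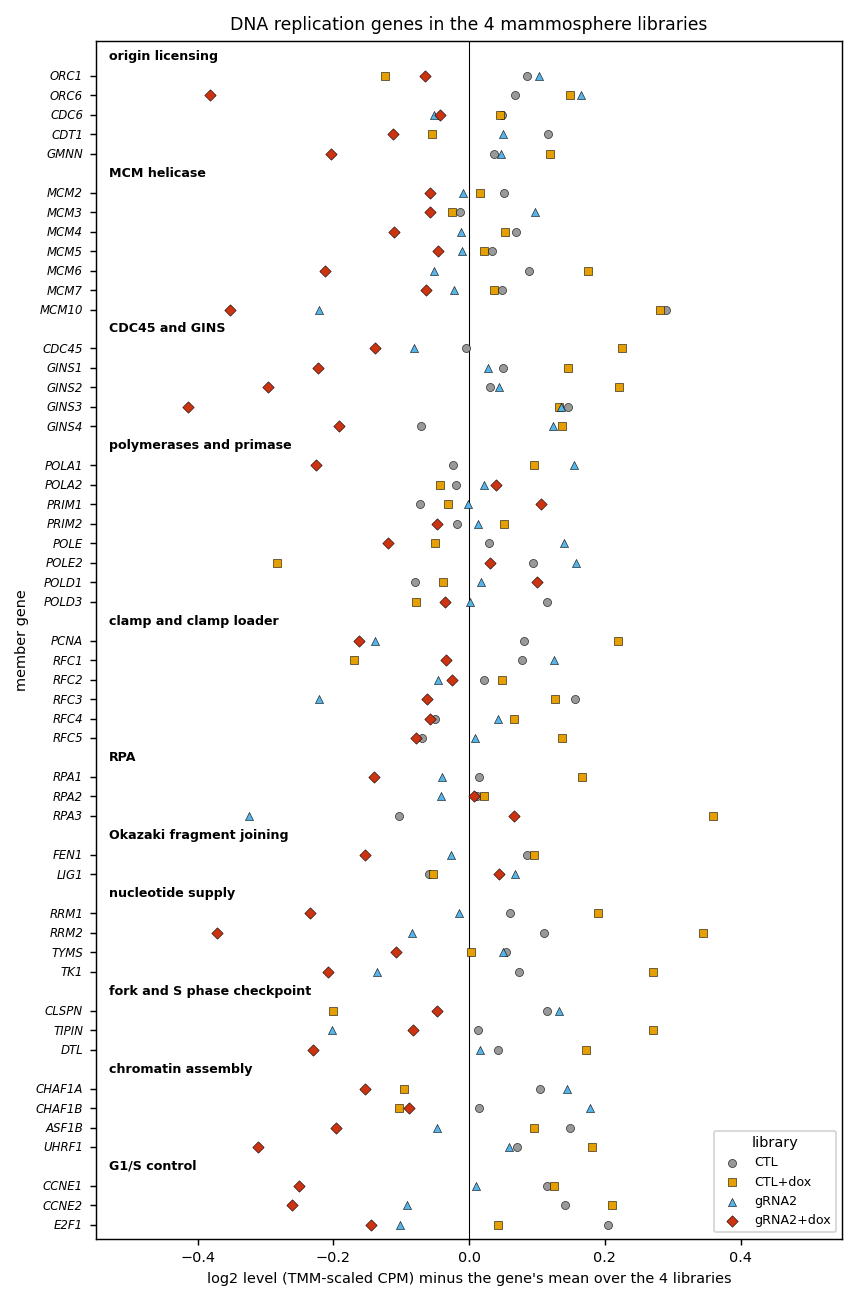
Level of each member in the 4 libraries, grouped by role, as log2 CPM minus the gene's mean over the libraries (horizontal axis), with 1 marker per library. The red diamonds of gRNA2+dox lie leftmost for 34 of 50 members and rightmost for POLA2, PRIM1 and POLD1, and the 4 markers of most MCM genes lie close together.

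Among the licensing genes, ORC6 and GMNN were lower in gRNA2+dox and CDC6 was level. ORC6, the smallest subunit of the origin recognition complex, had 198, 231, 270 and 155 reads in CTL, CTL+dox, gRNA2 and gRNA2+dox. It was lowest in gRNA2+dox, with log2 ratios of -0.55 (-0.84 to -0.26) against gRNA2, -0.53 (-0.83 to -0.23) against CTL+dox, and -0.45 (-0.76 to -0.14) when set against CTL. GMNN encodes geminin, the inhibitor of CDT1, and had 71.6, 75.8, 72.1 and 60.6 CPM in the same order. The 3 other libraries lay together and gRNA2+dox stood at -0.25 (-0.35 to -0.15) against gRNA2. CDT1, which loads the helicase, had 149, 132, 142 and 127 CPM, so that CTL+dox was nearly as low as gRNA2+dox. CDC6, the other loader, had 59.8, 59.7, 55.8 and 56.1 CPM, and its ratio to gRNA2 was 0.01 (-0.10 to 0.12). ORC1, the largest subunit of the origin complex, had 27.8, 24.1, 28.1 and 25 CPM and was lowest in CTL+dox.

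The MCM2 to MCM7 genes, the 6 subunits of the replicative helicase, all had their lowest level in gRNA2+dox, and little lower than elsewhere. The largest of the 6 differences against gRNA2 was MCM6, at -0.16 (-0.24 to -0.08), followed by MCM3, and the smallest was MCM5, at -0.04 (-0.12 to 0.04). MCM2 had 52.9, 51.6, 50.8 and 49.0 CPM in CTL, CTL+dox, gRNA2 and gRNA2+dox, and its interval spanned 0 in all 5 comparisons. MCM7 had 148, 147, 141 and 137 CPM, MCM5 had 112, 111, 109 and 106 CPM, and MCM4 had 110, 109, 104 and 97.4 CPM. MCM3 had 113, 112, 122 and 109 CPM and was highest in gRNA2. MCM6 had 138, 146, 125 and 112 CPM, which put gRNA2+dox at -0.39 (-0.46 to -0.31) against CTL+dox, the only one of the 6 past the cutoff in any of the 3 comparisons. MCM10, a separate protein that helps activate the helicase, had the lowest level per length of all members and only 124, 136, 111 and 85 reads. It was at -0.63 (-1.04 to -0.23) against CTL+dox but at -0.13 (-0.56 to 0.29) against gRNA2, and gRNA2 without doxycycline already lay at -0.51 (-0.89 to -0.13) against CTL.

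CDC45 and the GINS genes encode the partners that turn the MCM ring into the active helicase. All 5 had their lowest level in gRNA2+dox. All 5 were lower past the cutoff against CTL+dox, beside 14.9% of all tested genes. Against gRNA2 and against CTL, 2 of the 5 (40%) were, beside 12% and 14%. CTL+dox itself lay above CTL for 4 of the 5, with a median of 0.19. Their median log2 ratio was -0.31 against gRNA2, where the 7 genes listed as MCM helicase had -0.10, and the difference between the groups was not tested. CDC45 at -0.06 lay nearer to 0 than MCM3, MCM4 and MCM6. GINS3 had 397, 434, 503 and 288 reads, or 19.4, 19.3, 19.3 and 13.2 CPM. The first 3 levels were nearly equal and gRNA2+dox stood apart, at -0.55 (-0.76 to -0.34) against gRNA2, -0.55 (-0.77 to -0.33) against CTL+dox, and -0.56 (-0.78 to -0.34) when set against CTL. GINS2 had 13.6, 15.5, 13.7 and 10.9 CPM, with -0.34 (-0.58 to -0.10) against gRNA2 and -0.52 (-0.76 to -0.28) against CTL+dox. GINS1 had 12, 12.9, 11.9 and 9.98 CPM, and its interval against gRNA2, -0.51 to 0.01, reached 0. GINS4 had 124, 158, 181 and 122 reads, or 6.07, 7.01, 6.95 and 5.59 CPM. Its ratio was -0.31 (-0.66 to 0.02) against gRNA2, -0.33 (-0.68 to 0.02) against CTL+dox and -0.12 (-0.49 to 0.25) against CTL. The sum of the 2 read orientations, described below, held more reads for GINS4. It gave -0.35, past the cutoff, against gRNA2 and -0.25 against CTL. CDC45 had 11.7, 13.7, 11.1 and 10.6 CPM, where CTL+dox stood above the other 3 libraries and the ratio to gRNA2 was -0.06 (-0.31 to 0.20). GINS3 and GINS2, printed above, both carry the letters GCGGGAAA near the start, as does UHRF1, while the ORC6 window holds no E2F letters. The relation of these letters to the ratios was not tested.

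**Figure D3:**
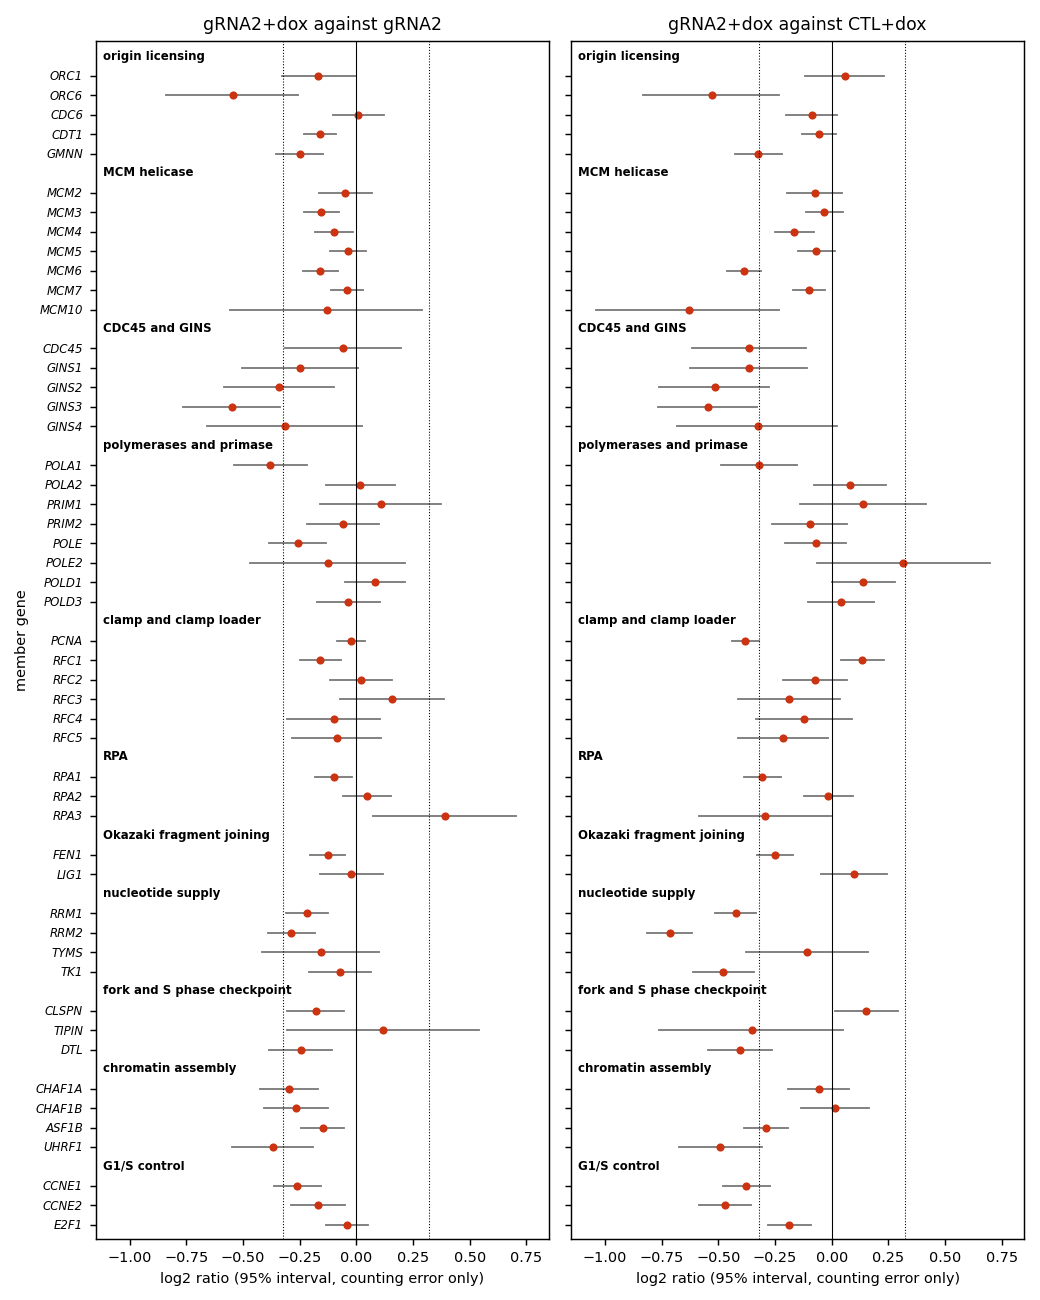
Log2 ratio of each member in gRNA2+dox against gRNA2 (left) and against CTL+dox (right), grouped by role, with exact 95% intervals of the reads. Dotted lines mark the cutoff of 0.32 either way. GINS3 and ORC6 lie furthest left in the left panel, both at -0.55, and RRM2 lies furthest left in the right panel at -0.72.

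The polymerase and primase genes lay on both sides of 0, with 5 of 8 lower in gRNA2+dox than in gRNA2. POLA1, the catalytic subunit of the polymerase that starts each strand, had 559, 670, 807 and 520 reads and was lowest in gRNA2+dox, at -0.38 (-0.54 to -0.22) against gRNA2. Its partners had ratios to gRNA2 of 0.02 (POLA2), 0.11 (PRIM1) and -0.06 (PRIM2), each with an interval that spanned 0. POLA2 had 29.3, 28.9, 30.2 and 30.5 CPM, PRIM1 had 9.11, 9.37, 9.56 and 10.3 CPM, and PRIM2 had 27.4, 28.8, 28.0 and 26.9 CPM, the last of these its lowest. POLA2 and PRIM1, the accessory subunit and the small primase subunit, were 2 of the 3 members highest in gRNA2+dox. The third was POLD1, the catalytic subunit of the lagging-strand polymerase, with 35.5, 36.5, 38.0 and 40.2 CPM and a ratio of 0.08 (-0.05 to 0.22) against gRNA2. POLE, the catalytic subunit of the leading-strand polymerase, had 44.8, 42.4, 48.3 and 40.3 CPM and stood at -0.26 (-0.39 to -0.13) against gRNA2. POLE2, its second subunit, had 126, 107, 168 and 129 reads and was lowest in CTL+dox, at -0.38 (-0.76 to 0.01) against CTL. POLD3 had 39.1, 34.2, 36.2 and 35.3 CPM. Over the 8 genes, the median ratio was -0.05 against gRNA2, 0.06 against CTL+dox, and -0.05 when set against CTL.

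PCNA, the sliding clamp, had the highest level per length of all members, a mean of 151 CPM per kb of transcript. It had 202, 223, 174 and 171 CPM, so the 2 gRNA2 libraries lay together below the 2 CTL libraries. The ratio of gRNA2+dox was -0.38 (-0.44 to -0.32) against CTL+dox but -0.02 (-0.09 to 0.04) against gRNA2. Many of its reads were also set aside, and with them kept the ratio to gRNA2 was -0.10 and gRNA2 lay at -0.11 against CTL, where it was at -0.22 without them. The clamp loader genes had ratios to gRNA2 between -0.16 (RFC1) and 0.16 (RFC3). RFC1, its largest subunit, had 89.1, 75.1, 92.1 and 82.5 CPM and was lowest in CTL+dox. RFC3 had 16.4, 16.0, 12.6 and 14.1 CPM, where gRNA2 without doxycycline was lowest, at -0.38 (-0.60 to -0.15) against CTL. RFC2, RFC4 and RFC5 had log2 ratios to gRNA2 of 0.02, -0.10 and -0.09, each with an interval that spanned 0.

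The single-strand binding genes differed from one another. RPA1, the large subunit, had 111, 123, 107 and 99.7 CPM and stood at -0.31 (-0.39 to -0.23) against CTL+dox. RPA2 had 63.6, 64.0, 61.3 and 63.3 CPM and its interval spanned 0 in all 5 comparisons. RPA3, the smallest subunit, had 148, 225, 162 and 178 reads and was the one member higher past the cutoff in gRNA2+dox than in gRNA2, at 0.39 (0.07 to 0.71), and in CTL+dox than in CTL, at 0.46 (0.16 to 0.77). A share of its reads was set aside in the main counts, as described below, and the value against gRNA2 was 0.08 when they were kept. FEN1, the nuclease that trims lagging-strand fragments, had 128, 129, 119 and 109 CPM. LIG1, the ligase that joins them, had 32.9, 33.0, 35.9 and 35.3 CPM, with a ratio of -0.02 (-0.16 to 0.12) to gRNA2.

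The nucleotide supply genes had their lowest level in gRNA2+dox, and their highest in CTL+dox for RRM1, RRM2 and TK1. RRM2, the small subunit of ribonucleotide reductase, which makes deoxynucleotides and limits their supply in S phase, had 1667, 2163, 1859 and 1277 reads, or 81.6, 96.0, 71.4 and 58.5 CPM. It stood at -0.29 (-0.39 to -0.18) against gRNA2, -0.72 (-0.82 to -0.62) against CTL+dox, and -0.48 (-0.59 to -0.38) when set against CTL. The size differed with the library it was set against, and CTL+dox lay 0.23 (0.14 to 0.33) above CTL and gRNA2 lay at -0.19 (-0.29 to -0.10). RRM1, the large subunit, had 95, 104, 90.2 and 77.5 CPM and stood at -0.22 (-0.31 to -0.13) against gRNA2. TK1, thymidine kinase, had 43.0, 49.3, 37.2 and 35.4 CPM, with the 2 gRNA2 libraries close together. TYMS, thymidylate synthase, had only 231, 246, 294 and 221 reads in the main counts.

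Of the fork and checkpoint genes, DTL was the clearest. DTL, the substrate receptor of the ligase that destroys CDT1 on replicating DNA, had 39.2, 42.9, 38.5 and 32.5 CPM and stood at -0.25 (-0.39 to -0.11) against gRNA2 and -0.40 (-0.55 to -0.26) against CTL+dox. CLSPN, the claspin adaptor of the checkpoint kinase, had 45.3, 36.4, 45.9 and 40.5 CPM and was lowest in CTL+dox, at -0.31 (-0.45 to -0.18) against CTL. TIPIN, a fork protection protein, had only 91, 120, 100 and 91 reads, and its intervals reached 0 in all 3 comparisons of gRNA2+dox.

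UHRF1, which carries DNA methylation over to the new strand, led the chromatin group. It had 509, 606, 644 and 418 reads, the lowest in gRNA2+dox, with -0.37 (-0.55 to -0.19) against gRNA2, -0.49 (-0.67 to -0.31) against CTL+dox, and -0.38 (-0.57 to -0.19) when set against CTL. CHAF1A and CHAF1B, subunits of the factor that places histones on new DNA, had 47.2, 41.0, 48.4 and 39.4 CPM and 34.9, 32.1, 39.0 and 32.5 CPM. Against CTL+dox, the intervals of both spanned 0. ASF1B, a histone chaperone, had 90.1, 86.8, 78.6 and 70.9 CPM and stood at -0.15 (-0.24 to -0.05) against gRNA2.

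CCNE1 and CCNE2, the E cyclins that drive the entry into S phase, were lowest in gRNA2+dox. CCNE1 had 78.1, 78.6, 72.6 and 60.6 CPM, and its ratio was -0.26 (-0.36 to -0.16) against gRNA2 and -0.37 (-0.47 to -0.26) against CTL. CCNE2 had 62.5, 65.6, 53.2 and 47.3 CPM, with the 2 gRNA2 libraries below both CTL libraries, and its ratio to gRNA2 was -0.17 (-0.29 to -0.05). E2F1, a factor of the S phase genes, had 99.8, 89.2, 80.7 and 78.3 CPM. Its ratio was -0.35 (-0.44 to -0.26) against CTL and -0.04 (-0.14 to 0.05) against gRNA2, and gRNA2 without doxycycline already lay at -0.31 (-0.40 to -0.22) against CTL.

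Doxycycline was given to both cell pools, so its ratio in CTL cells can be set beside its ratio in gRNA2 cells. These 2 ratios share no library, and TCOF1 was at -0.58 and -1.34 in them. For the members, the difference of the 2 log2 ratios, gRNA2 cells minus CTL cells, had a median of -0.13, beside -0.02 for all tested genes, and was below 0 for 37 of 50 (74%), beside 54.1%. It was lower past the cutoff of 0.32 for 11 members (22%), beside 15.5% of all tested genes, and higher for 0, beside 12.6%. Of the 11215 genes with at least 100 counts in some library, 8.47% were lower and 5.95% higher. The 11 were ORC6, GMNN, GINS1, GINS2, GINS3, GINS4, POLA1, RRM1, RRM2, DTL and UHRF1. ORC6 had the most negative difference, -0.63, with 0.08 in CTL cells and -0.55 in gRNA2 cells. GINS3, GINS2, RRM2 and GINS4 followed at -0.54, -0.53, -0.52 and -0.52. GINS3 was level in CTL cells, at -0.01, while GINS2, RRM2 and GINS4 were higher with doxycycline there, at 0.19, 0.23 and 0.21. At the other end, POLE2 had 0.25, RFC3 0.19, POLD3 0.16, CLSPN 0.13 and E2F1 0.12. POLE2, POLD3, CLSPN and E2F1 were below 0 in both cell pools, at -0.38, -0.19, -0.31 and -0.16 in CTL cells and at -0.13, -0.04, -0.18 and -0.04 in gRNA2 cells.

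**Figure D4:**
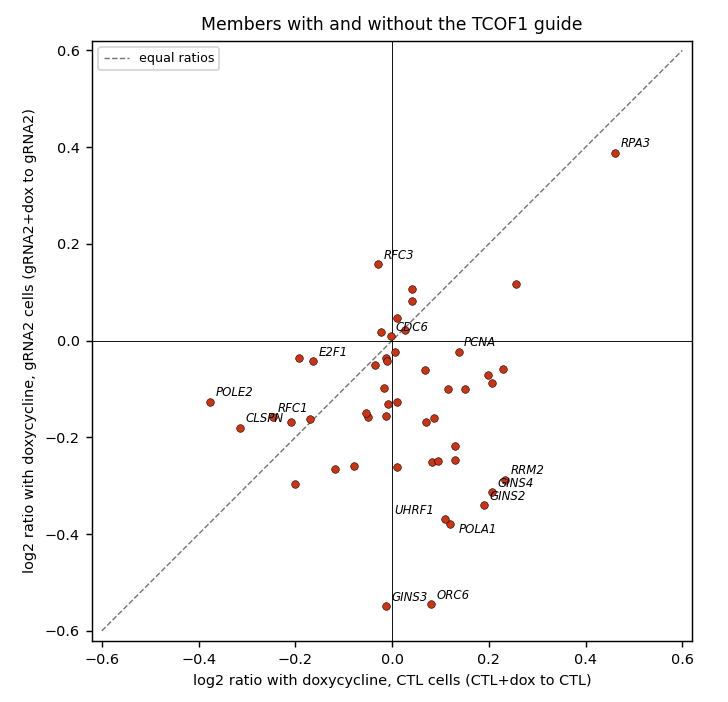
Log2 ratio of each member with doxycycline in CTL cells (horizontal axis) and in gRNA2 cells (vertical axis), 1 point per gene, with the dashed line at equal ratios. Points below the line, 37 of 50, had the lower ratio in gRNA2 cells, and ORC6 and GINS3 lie lowest, near -0.55.

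Ratios of the members varied weakly with transcript length, in a direction that differed between comparisons. Spearman's rho over the 50 members was -0.27 for gRNA2+dox against gRNA2, -0.24 for CTL+dox against CTL and 0.13 for gRNA2+dox against CTL+dox, a description over genes that share libraries. The 17 shortest members, at 1263 to 2020 bases, had a median of 0.07 in CTL+dox against CTL, and the 17 longest, at 3436 to 8512 bases, had -0.01. In gRNA2+dox against CTL+dox the same members had -0.29 and -0.09. Against gRNA2 they had -0.07 and -0.16. The part of length in these results was not tested beyond the centring given under the processing alternatives. TK1 is among the shortest members and CLSPN is the longest.

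Reads of TYMS, PCNA, RPA3, GINS4 and CCNE2 were counted in part. In the unstranded counts, a read where a gene on the opposite strand overlaps belongs to neither gene. The sum of the 2 orientation columns keeps such reads, together with any that came from the opposite gene, which cannot be told apart. TYMS overlaps ENOSF1 and TYMSOS over 66.5% of its canonical transcript, and its sum was 1682, 2056, 1981 and 1583 reads in CTL, CTL+dox, gRNA2 and gRNA2+dox, 7.36 times its unstranded reads. Its mean level per length went from 6.76 to 48.6 CPM per kb, and its place among the 50 members from 35 to 6. The sum for PCNA, which overlaps PCNA-AS1, was 7770, 9730, 9185 and 7179 reads, 1.95 times the unstranded reads. The sum for RPA3, which overlaps UMAD1, was 237, 326, 306 and 271 reads, 1.60 times. GINS4 and CCNE2 were at 1.21 and 1.09 times. No gene overlapping GINS4 was found in the annotation used here, so the origin of its extra reads was not settled. With the sums, the log2 ratios of TYMS were -0.07 against gRNA2, -0.33 against CTL+dox, and -0.19 when set against CTL, and those of PCNA were -0.10, -0.39 and -0.21. No member was then higher past the cutoff in gRNA2+dox than in any other library, and 6, 19 and 10 were lower against gRNA2, CTL+dox and CTL, beside 11.9%, 14.8% and 13.7% of the 15644 genes tested in this way. The 6 against gRNA2 were 12% of the members, near that background. Of the 11215 genes with at least 100 unstranded counts in some library, 5.11% were lower past the cutoff against gRNA2 with the sums.

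By level per length, PCNA was followed by FEN1 at 60.1, MCM7 at 58.2, GMNN at 55.4 and CDT1 at 51.5 CPM per kb in the unstranded counts. The GINS genes lay between 1.70 (GINS4) and 8.09 (GINS3) CPM per kb, and MCM10 was last at 1.11. The MCM2 to MCM7 genes lay between 14.9 (MCM2) and 58.2 (MCM7), above every GINS gene and CDC45 at 6.25.

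Other genes of the same pathways were read from lists of related genes. Of 49 further replication genes, 29 were lower in gRNA2+dox than in gRNA2, with a median of -0.04. These 59.2% stand beside 54.2% of all tested genes. Past the cutoff 3 (6.12%) were lower, beside 12% of all tested genes and 5.25% of those with at least 100 counts. The 1 higher (2.04%) stands beside 8.73% and 3.32%. Their median was -0.15 against CTL+dox, and -0.06 when set against CTL, each nearer to 0 than the members' median. Against CTL+dox, 38 (77.6%) were lower, near the members' 80% and beside 49.8% of all tested genes. Past the cutoff 10 (20.4%) were lower there, beside 14.9%. Against CTL, 33 (67.3%) were lower, beside 48.3%. TONSL, which acts at stalled forks, had 318, 293, 344 and 198 reads and was at -0.54 against gRNA2. Of 29 tested genes of the E2F and RB family list, 22 (75.9%) were lower against gRNA2, with a median of -0.10. Past the cutoff 4 (13.8%) were lower. Against CTL+dox, 23 (79.3%) of the 29 were lower. Of 30 mitosis genes, 29 were lower against gRNA2, with a median of -0.33, and 15 (50%) were past the cutoff, where 5 of the 50 replication members (10%) were. The difference between the lists was not tested. The mitosis medians were -0.54 against CTL+dox, and -0.47 when set against CTL. CDKN1A, the gene of the p21 inhibitor of the cyclin E kinase, was at -0.04 against gRNA2.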

How the data were processed

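The authors trimmed reads with fastp, aligned them with STAR and deposited STAR's raw counts of reads per gene, not normalized. The submitters' processing notes name hg38 as the build, and the annotation and STAR's version were not given in the sources used here. The unstranded counts were the main values. Multimapping reads (3.39 to 4.85% per library) and reads set aside as ambiguous (2.09 to 2.17%) were not counted by gene, so members with close copies lose reads. The authors ranked genes with GFOLD, which was not run here. Its stated cutoffs were applied with the 1% or 99% quantile of the log2 ratio under Poisson error.

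Library sizes were scaled by TMM in edgeR 4.0.16 (R 4.3.3), with DESeq2 1.42.0 size factors as an alternative. A prior count of 0.5, in proportion to library size, was added before log2 ratios were taken, and genes that reached 10 counts in some library entered. Ratios, intervals and figures were made with Python 3.11.15, numpy 2.4.6, pandas 2.3.3, scipy 1.17.1 and matplotlib 3.10.9, and the ratio and interval steps were tested on simulated data. With 1 library per condition no p-value was computed, the groups were those of the labels, and a gene with 0 counts could have held up to 3 (0.115 to 0.147 CPM). Reads carried no molecular identifiers, so intervals and that floor cover counting error only. Transcript lengths came from GENCODE canonical transcripts lifted to GRCh37, and promoters and their motifs from RefSeq (GRCh38.p14), matched by symbol.

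The members and the gene lists were chosen with earlier results of these data known. Genes described in full were those lowest or highest in gRNA2+dox by the smallest of its 3 differences, a set of core members, the highest and lowest level per length, and the 5 most negative and 5 most positive differences of the doxycycline ratios. The other members were added for completeness. Thinning to the smallest library used a fixed random seed. The orientation sums, the centring by transcript length and the TMM factors from tested genes alone were added after seeing the data. The value of 1 marker gene is not reported here.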

Additional observations from a re-analysis of the deposited data

Results flagged for a closer look

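The log2 ratio with doxycycline pointed in opposite directions in CTL and gRNA2 cells for some members, and the difference was not tested, since each ratio rests on 2 libraries. The members' median ratio was 0.139 lower in gRNA2 cells than in CTL cells, a difference of -0.139. The differences, gRNA2 cells minus CTL cells, were -0.63 for ORC6, -0.53 for GINS2, -0.52 for GINS4, -0.52 for RRM2, -0.50 for POLA1, -0.48 for UHRF1, -0.38 for DTL, -0.35 for RRM1, -0.33 for GMNN, -0.27 for CCNE1, -0.27 for TK1, -0.24 for CCNE2 and -0.16 for PCNA. In CTL cells the intervals of CCNE1, at 0.01 (-0.09 to 0.11), and of CCNE2, DTL, GINS2, GINS4, GMNN, ORC6, POLA1 and UHRF1 spanned 0. In gRNA2 cells those of GINS4, PCNA and TK1 did. Of these 13, only RRM1 and RRM2 had counting intervals above 0 in CTL cells and below 0 in gRNA2 cells. This holds for the unstranded counts, which leave out many reads of PCNA. Intervals of the orientation sums were not computed, so whether PCNA would join them is not shown.

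The orientation columns, which the main comparisons do not use, held more reads than the unstranded column for 3 members named here: 7.36 reads per unstranded read for TYMS, 1.95 for PCNA and 1.60 for RPA3.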

How the results depend on the processing

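No paired analysis was possible because there was a single library for each condition, and no replicate could be left out. The members' medians of gRNA2+dox were below 0 against all 3 libraries under every alternative run. Against CTL+dox the median was -0.21 with total counts and -0.17 with thinned libraries. Against CTL it was -0.21 with total counts and -0.18 centred by transcript length, and against the other 3 libraries pooled it was -0.15. The median of CTL+dox against CTL changed sign, to -0.0018 with DESeq2 size factors, -0.019 with total counts, -0.014 centred by length and -0.0011 with TMM factors from tested genes alone. That of gRNA2 against CTL was -0.0562 with DESeq2, -0.0834 with total counts, -0.0599 thinned, -0.0664 centred by length and -0.0642 with TMM from tested genes. The difference of the doxycycline ratios was -0.11 with DESeq2, -0.10 centred by length and -0.11 with TMM from tested genes. CDC6 against gRNA2 changed sign to -0.0211 when thinned. The cause was not tested for any of these.

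The counts turned on the fold cutoff by construction. At 1.1-fold, members lower numbered 24 against gRNA2, 27 against CTL+dox, 29 against CTL, 14 against each of the 3, 8 for CTL+dox against CTL and 11 for gRNA2 against CTL, and members higher numbered 2 against gRNA2, 3 against CTL+dox, 3 against CTL, 10 for CTL+dox against CTL and 3 for gRNA2 against CTL. Of all tested genes, 27.8%, 30.3% and 27.2% were lower at 1.1-fold against gRNA2, CTL+dox and CTL, and 21.7%, 29.5% and 27.0% were higher. In CTL+dox against CTL, 25.1% were lower and 25.9% higher at 1.1-fold, and in gRNA2 against CTL 22.6% and 28.2%. At 1.5-fold, 5.51%, 7.24% and 7.0% were lower against gRNA2, CTL+dox and CTL. In CTL+dox and gRNA2 against CTL, 4.56% and 5.29% were. Higher at 1.5-fold were 3.79% against gRNA2 and 3.84% in CTL+dox against CTL. At 1.5-fold, members lower numbered 0 against gRNA2, 2 against CTL+dox, 1 against CTL, 0 against each of the 3 and 0 in both comparisons without gRNA2+dox, and members higher numbered 0 against gRNA2 and 0 for CTL+dox against CTL. The share of all tested genes lower against each of the 3 at once is not given at 1.1-fold or 1.5-fold. Those 2 member counts therefore stand without a background. With the orientation sums, 0 members were higher against gRNA2 and 0 in CTL+dox against CTL. Centred by length, 1 was higher against CTL+dox. In CTL+dox against CTL, 2 were lower with DESeq2, total counts or TMM from tested genes. Dropping the filter on low counts or raising the prior count to 5 left all 59 results compared on the same side. By reads in the best-counted library, TIPIN, MCM10, POLE2 and GINS4 were the most weakly counted members, at 120, 136, 168 and 181.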
